A study of Mus musculus with 6 samples.

Results

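The Myc network and D cyclins comprised 10 genes: the Myc family (Myc, Mycl and Mycn), its obligate partner Max, the Max-binding antagonists Mxd1, Mxd4, Mxi1 and Mnt, and the D cyclins Ccnd1 and Ccnd2. They were taken by symbol from a table of 24956 rows, and each of the 10 had its own row. Expression was measured by RNA sequencing in mouse intestinal organoids, cultures of intestinal epithelium that grow as hollow structures in a gel. All libraries carried the Apc Min genotype, a truncating allele of a scaffold protein in the beta-catenin degradation complex. The 3 control libraries came from organoids in control medium and the 3 low glutamine libraries from organoids in low glutamine medium. The sources used here do not give the age, sex, segment of intestine, glutamine level or length of treatment. The series is part of a study of Wnt signalling and differentiation in intestinal tumours. Its design calls the libraries biological replicates without naming animals or cultures, so every p-value measures the spread between these samples.

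Myc, Mycl and Mycn are transcription factors of the helix-loop-helix leucine zipper class. They bind DNA only as a pair with Max, at a short palindrome called the E-box, and activate genes of growth, ribosome production and nucleotide synthesis. Mxd proteins and Mnt compete for Max, occupy the same sites and recruit Sin3 repressor complexes, and Mxd1 and Mxi1 are known for rising as cells leave the cycle. D cyclins bind Cdk4 and Cdk6 and start the phosphorylation of the retinoblastoma protein that opens the way to DNA replication. In intestinal crypts, Myc and the D cyclins are commonly listed as targets of beta-catenin and its TCF partners.

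Values are RPKM, reads scaled to transcript length and library depth, so that levels can be compared between genes. The test was limma on log2(RPKM + 1) over the 11082 genes averaging 1 RPKM or more, with p-values adjusted by Benjamini-Hochberg and called under 0.05. Of the 10 members, 9 passed this filter and Mycn, with a mean of 0.956 RPKM, did not. Among the 9, Mycl and Max rose, Mxd1, Mxi1 and Mnt fell, and Myc, Mxd4, Ccnd1 and Ccnd2 did not pass. These 5 calls (55.6% of 9) stand against 66.4% of all tested genes called, 36.1% higher and 30.3% lower in low glutamine. The 3 libraries of a group did not overlap those of the other for 7 of the 9 tested members, against 70.2% of all tested genes. The median log2 fold change was 0.08 for the 9 members and 0.03 for all tested genes. The set's share of calls was thus no higher than the background, and what follows describes which members moved and by how much.

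The libraries differed in ways that touch every value here. Depth, recovered from the steps of single reads, ran from 24.4 to 35.4 megareads in control and from 28.3 to 34.0 megareads in low glutamine. The RPKM columns summed to 362217 to 370158 in control and to 327956 to 347248 in low glutamine. The ribosomal RNA precursor Rn45s measured 1898, 2074 and 6680 RPKM in control replicates 1 to 3 and 6788 to 12252 RPKM in low glutamine. With every library brought to the same sum, the median over all genes went from 0.03 to 0.14 on the log2 scale, and to 0.17 with Rn45s left out. The share of calls that were higher moved with it, from 54.4% to 69% and 71.6%. Xist, the RNA that silences an X chromosome, stood at 83.1 to 90.5 RPKM in control and at 0.0237 to 0.0350 RPKM in low glutamine, and the Y-linked Eif2s3y read 0 throughout control and 25.2 to 31.4 RPKM in low glutamine. The medium and this difference in sex-linked transcripts cannot be told apart, for any gene. All 10 members lie on autosomes, which does not free their values from this limit.

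The labelled tissue was checked against cell type markers. The 9 epithelial markers, among them Epcam, Cdh1 and Vil1, summed to 2239 to 2457 RPKM in control and 2705 to 2789 RPKM in low glutamine. Of these 9, 4 rose (Epcam, Cdh1, Krt8 and Krt18) and 5 fell (Vil1, Krt19, Cdx1, Cdx2 and Cldn7), with a median log2 fold change of -0.26. The 6 immune markers summed to under 1 RPKM in every library (0.230 to 0.970 RPKM), as did the 4 endothelial markers (0.165 to 0.471 RPKM). Of 8 stromal markers, 7 had a mean under 1 RPKM, with Col3a1 and Lum listed at 0 in every library. Vim, also made by some epithelial cells, was the exception at 3.29 and 11.5 RPKM. The mix of epithelial markers differed between the groups. The 10 enterocyte markers all fell (summed level 2458 to 2664 RPKM in control, 275 to 312 RPKM in low glutamine), the 7 goblet cell markers all fell (1096 to 1321 and 516 to 587 RPKM), and the 5 Paneth cell markers all rose (1749 to 1805 and 2943 to 3457 RPKM). The 4 tested enteroendocrine markers rose as well (list sum 195 to 200 and 1061 to 1231 RPKM). So did the 3 tested tuft cell markers (list sum 2.66 to 3.14 and 6.67 to 7.05 RPKM). Of the tuft cell markers, Trpm5 and Avil (control means 0.746 and 0.708 RPKM) passed the filter only through low glutamine (1.64 and 1.87 RPKM). The enterocyte marker Lct and the goblet cell marker Clca1 passed only through control, with low glutamine means of 0.368 and 0.925 RPKM. The part that the marked cell types had in the members' values was not tested. In bulk RNA, fewer cells of a type and less RNA per cell cannot be told apart.

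**Figure D1:**
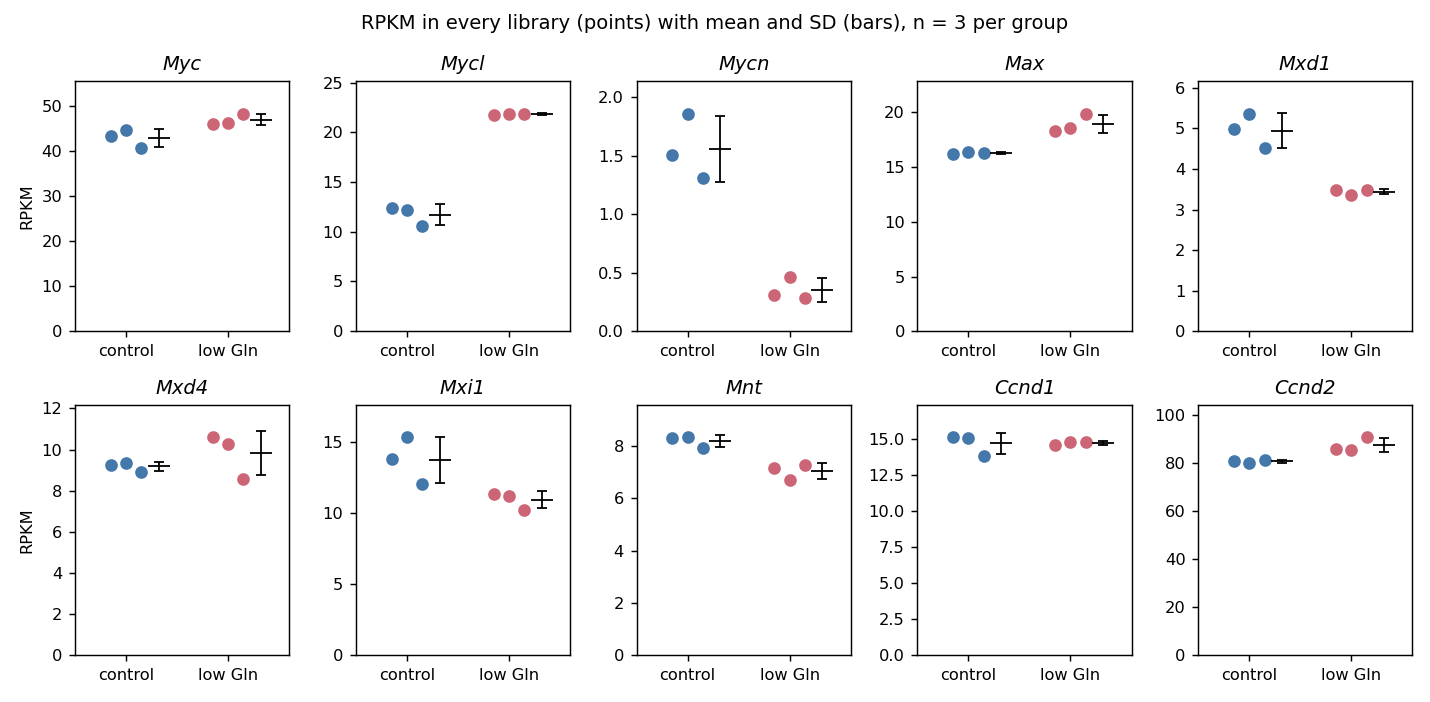
RPKM of the 10 members in each library (points, vertical axis from 0) with the mean and SD of 3 libraries per group (bars), control in blue and low glutamine in red. Mycl lies at 10.6 to 12.4 RPKM in control and 21.7 to 21.9 RPKM in low glutamine, Mycn moves the other way, and the groups overlap for Mxd4 and Ccnd1.

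Within the Myc family the 3 paralogs did not move alike. Mycl rose, Myc was slightly higher without passing, and Mycn was lower. Myc itself (chromosome 15, 61985341 to 61990361 of mm10) measured 43.3, 44.8 and 40.8 RPKM in control replicates 1 to 3, against 46.1, 46.3 and 48.3 RPKM in low glutamine. Every low glutamine value lay above every control value, with a narrow gap between 44.8 and 46.1 RPKM. The means were 43.0 ± 2.03 and 46.9 ± 1.22 RPKM (SD, n = 3 each), a ratio of 1.09. The log2 fold change of 0.13 ± 0.05 (SE) did not pass (limma adjusted p = 0.062) as deposited, and the call changed with the scaling of the libraries.

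Mycl, the paralog first described in lung cancer cells (chromosome 4, 122995588 to 123002490), measured 12.4, 12.2 and 10.6 RPKM in control, against 21.7, 21.9 and 21.9 RPKM in low glutamine. The low glutamine libraries were nearly equal and stood well above the 3 controls. From 11.7 ± 1.02 to 21.8 ± 0.0958 RPKM the ratio was 1.86, with a log2 fold change of 0.84 ± 0.06 (SE, limma adjusted p = 1.3e-07). It was the largest change among the 9 tested members.

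Mycn, the paralog known from neuroblastoma and embryonic progenitors (chromosome 12, 12936093 to 12941836), was the least abundant member. It measured 1.51, 1.86 and 1.31 RPKM in control, against 0.306, 0.468 and 0.286 RPKM in low glutamine. The groups were wide apart, and the control mean was 4.41 times that of low glutamine (1.56 ± 0.280 and 0.353 ± 0.0997 RPKM). Whole read numbers could be recovered for this gene, at 122, 171 and 83 reads in control and 27, 40 and 21 in low glutamine. Counting error alone was therefore 7.65% to 21.8% of a value, and covers counting only, not the spread between cultures. With the filter lowered to a mean of 0.3 RPKM, Mycn fell by 0.92 ± 0.09 (SE) on the log2(RPKM + 1) scale (limma adjusted p = 6.5e-06), where 65.6% of 12563 genes were called and 28.1% were lower. This scale understates the change of a gene near 1 RPKM, since the log2 ratio of the means was -2.14.

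The RefSeq table of promoters on GRCm38.p6 held 7 of the 10 members in 9 windows, and lacked Myc, Ccnd1 and Ccnd2. The start of the table is the outer end of the locus for Mycn and Mxd4, and lies inside the locus printed here for the others, by 343 bases in Mycl, 118 in Mnt, 75 in Mxd1 and Max, and 378 or more in Mxi1. The 250 bases before each such start were searched on both strands for the E-box CACGTG, the TCF/LEF core CTTTGA and the E2F sites TTTCGCGC and TTTGGCGC. These letters occur in 6.02%, 13.8%, 0.256% and 0.417% of 32851 such windows. Mycn, the member with the steepest fall, was the only one of the 7 with a TCF/LEF core or an E2F match, and its window is shown for the crowding of these letters. Matches are in capitals. The overlapping pair of E2F matches lies 183 to 172 bases before the start, the further TTTGGCGC 168 to 161 bases before it, and TCAAAG, which reads CTTTGA on the opposite strand, 13 to 8 bases before it.
Mycn, chr12:12941837-12942086, minus strand: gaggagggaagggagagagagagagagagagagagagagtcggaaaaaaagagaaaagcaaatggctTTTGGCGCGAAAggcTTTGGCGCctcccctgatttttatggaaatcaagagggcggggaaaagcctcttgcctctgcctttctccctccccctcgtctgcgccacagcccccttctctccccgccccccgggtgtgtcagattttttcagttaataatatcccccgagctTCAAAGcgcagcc
The 250 bases before the table's start of Mycl (position 122995931), which moved the other way and whose window thus lies inside its locus, matched none of the 4 motifs. A match of letters describes the window and says nothing on whether a factor is bound there.

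The makeup of the family differed between the groups. Summed over the 3 genes, the level was 52.6 to 58.9 RPKM in control and 68.1 to 70.5 RPKM in low glutamine. Myc made up 76.4% ± 0.940 of the sum in control and 67.9% ± 0.577 in low glutamine (SD, n = 3), and Mycl 20.8% ± 0.833 and 31.6% ± 0.473. Mycn went from 2.76% ± 0.356 to 0.512% ± 0.148. A factor applied to a whole library leaves these shares unchanged, while quantile normalization does not. Bmyc, a short relative of Myc that lacks the DNA-binding end and was added after its values were seen, rose from 10.3 to 12.5 RPKM in control to 13.4 to 15.9 RPKM in low glutamine (log2 fold change 0.30, limma adjusted p = 0.0044).

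Max, the partner with which the Myc proteins bind DNA (chromosome 12, 76937269 to 76962323), was even across controls at 16.2, 16.4 and 16.3 RPKM. It measured 18.3, 18.6 and 19.9 RPKM in low glutamine, each value above all controls. The rise was small, a ratio of 1.16 (log2 fold change 0.21 ± 0.05 SE, limma adjusted p = 0.0038). Max rested on 935 to 1465 reads per library, a counting error of 2.61% to 3.27%, and passed under each of the 20 settings tried, at a log2 fold change between 0.17 and 0.35.

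Of the 4 antagonists, 3 fell and Mxd4 did not pass. Mxd1 (chromosome 6, 86647044 to 86669234) measured 4.97, 5.36 and 4.51 RPKM in control, against 3.47, 3.37 and 3.49 RPKM in low glutamine. The groups were clearly apart, and the log2 fold change was -0.42 ± 0.06 (SE, limma adjusted p = 8.0e-05). Mxd1 rested on 459 to 885 reads and kept its call and direction under all 20 settings. Its promoter window held none of the 4 motifs.

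Mxi1 (chromosome 19, 53310128 to 53373293) measured 13.8, 15.3 and 12.04 RPKM in control, against 11.3, 11.2 and 10.2 RPKM in low glutamine. The controls were spread by 11.9% of their mean, and the gap between the groups was under 1 RPKM. The log2 fold change was -0.30 ± 0.08 (SE, limma adjusted p = 0.0042). This call was lost with libraries rescaled to a common sum (-0.18, adjusted p = 0.074) and with the same done without Rn45s (-0.16, adjusted p = 0.12).

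Mnt (chromosome 11, 74830806 to 74845725), the broadly expressed antagonist, measured 8.30, 8.33 and 7.93 RPKM in control, against 7.16, 6.72 and 7.29 RPKM in low glutamine. All 3 low glutamine values were below the controls, by a log2 fold change of -0.19 ± 0.05 (SE, limma adjusted p = 0.0071). It lost its call under the same pair of rescalings (-0.08 and -0.05, adjusted p = 0.086 and 0.19).

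Mxd4 (chromosome 5, 34176580 to 34187710) measured 9.26, 9.34 and 8.93 RPKM in control, against 10.6, 10.3 and 8.59 RPKM in low glutamine. Replicate 3 of low glutamine lay below every control, while replicates 1 and 2 lay above them. The log2 fold change was 0.08 ± 0.07 (SE, limma adjusted p = 0.31). Without low glutamine replicate 3 it was 0.17 and passed (adjusted p = 0.012), so that this library decided the call. Mxd4 rested on 257 to 425 reads, a counting error of 4.85% to 6.24%.

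Mnt and Mxd4 were the members with an E-box in the 250 bases before the start, the letters that Myc-Max and Mxd-Max pairs bind. They are shown with 12 bases on either side and the E-box in capitals. It begins 123 bases before the table's start in Mnt (position 74830924) and 219 before that in Mxd4 (position 34187710). In Mnt it thus reaches the outer end of the locus.
Mnt, chr11:74830789-74830818, plus strand: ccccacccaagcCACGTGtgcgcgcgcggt
Mxd4, chr5:34187912-34187941, minus strand: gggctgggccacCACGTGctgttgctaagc
Mnt fell and Mxd4 did not pass, so these E-box holders did not share a call.

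The antagonists together summed to 33.4 to 38.4 RPKM in control and 29.6 to 32.5 RPKM in low glutamine. Within that sum, Mxd4 went from 25.5% ± 1.18 to 31.4% ± 2.03 (SD, n = 3), Mxd1 from 13.7% ± 0.248 to 11.04% ± 0.643, and Mxi1 from 37.97% ± 1.94 to 34.9% ± 0.490. Mnt held 22.8% ± 1.01 and 22.6% ± 1.76. In absolute terms the antagonists' summed level was below that of the Myc family in every library.

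The D cyclins were led by Ccnd2. Ccnd2 (chromosome 6, 127125162 to 127152188) was the most abundant member in both groups, at 80.5, 80.0 and 81.2 RPKM in control, against 85.7, 85.5 and 90.5 RPKM in low glutamine. The groups did not overlap, and the ratio of the means was 1.08. The log2 fold change of 0.11 ± 0.05 (SE) did not pass (limma adjusted p = 0.078), although this gene rested on 11437 to 16827 reads per library, where counting error is under 1% (0.771% to 0.935%).

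Ccnd1 (chromosome 7, 144929931 to 144939831) measured 15.1, 15.1 and 13.9 RPKM in control, against 14.6, 14.8 and 14.8 RPKM in low glutamine. The groups overlapped, and the means were 14.7 ± 0.724 and 14.7 ± 0.127 RPKM (limma adjusted p = 0.97). Ccnd2 made up 84.6% ± 0.729 of the sum of both cyclins in control and 85.5% ± 0.365 in low glutamine.

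In the order of levels, Ccnd2 came first and Myc second in both groups, and Mxd1 and Mycn came last. Mycl moved from the sixth place in control, where its range overlapped that of Mxi1, to the third place in low glutamine, where its lowest value of 21.7 RPKM exceeded the highest Max value of 19.9 RPKM. Ccnd1 and Mxi1 overlapped in control and were apart in low glutamine, and Mxi1 and Mxd4 overlapped in low glutamine. All other neighbours in the order were apart in all 3 libraries of a group.

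**Figure D2:**
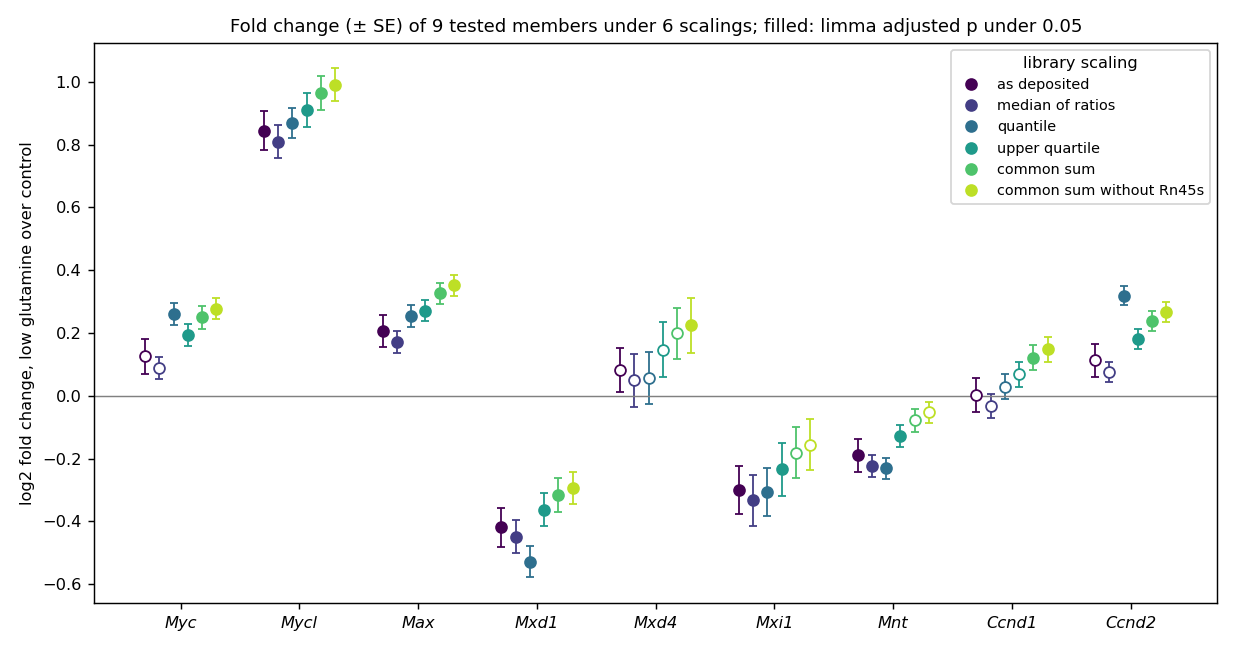
Log2 fold change (± SE, vertical axis) of the 9 tested members under 6 ways of scaling the libraries (colours), with filled points where the limma adjusted p is under 0.05. Mycl, Max and Mxd1 are filled throughout, while Myc and Ccnd2 are filled under 4 of the 6, Mxi1 and Mnt under 4, Ccnd1 under 2 and Mxd4 under 1.

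The scaling between libraries decided most of the remaining calls. Under 6 scalings (as deposited, median of ratios, quantile, upper quartile, common sum, and common sum without Rn45s), Mycl, Max and Mxd1 passed in all 6 with the same direction. Myc passed as higher in 4, at log2 fold changes of 0.19 to 0.28, and did not pass as deposited or with median-of-ratios scaling (0.09, limma adjusted p = 0.052). Ccnd2 behaved alike, passing at 0.18 to 0.32 in the same 4 and not at 0.08 with median-of-ratios scaling (adjusted p = 0.069). Ccnd1 ran from -0.03 with median-of-ratios scaling to 0.15 with the common sum without Rn45s, and passed as higher under both common-sum scalings (adjusted p = 0.025 and 0.010). Counting members, 2 rose and 3 fell as deposited and with median-of-ratios scaling, where 34.7% of all genes were higher and 35.6% lower. With a common sum 5 rose and 1 fell, against 51.2% higher and 23% lower among all genes. Without Rn45s 6 rose and 1 fell, against 54.3% and 21.5%. With upper-quartile scaling and with quantile normalization, 4 rose and 3 fell, against 45.6% and 26.7% with the first and 36.7% and 32.8% with the second. With the replicate number as a block, 2 rose and 3 fell, against 37.8% and 32%.

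A ratio of 2 members within a library is unchanged by any factor applied to that whole library, and 10 ratios were compared. Quantile normalization is no such factor, and under it the log2 fold change of Ccnd2 exceeded that of Myc (0.32 and 0.26), where as deposited it was below (0.11 and 0.13). With 3 libraries against 3 the smallest two-sided exact permutation p is 0.1, and the smallest adjusted over the 10 was 0.17, so no ratio could pass. Mycl over Myc rose by 0.77 on the log2 scale, from -1.87 ± 0.0743 to -1.10 ± 0.0337 (SD, n = 3, exact p = 0.1). Mycn over Myc fell by 2.29, Mxd1 over Myc by 0.65, Mxi1 over Myc by 0.45 and Mnt over Myc by 0.34, each with no overlap between the groups and an exact p of 0.1. For Mycn, Mxd1, Mxi1 and Mnt the lack of overlap was fixed in advance. In RPKM, Myc was higher and each of them lower with no overlap between the groups. These ratios over Myc thus restate the RPKM and add no separate support.

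The D cyclins differed less from control by this measure. Ccnd1 over Myc fell by 0.13, from -1.55 ± 0.0264 to -1.67 ± 0.0322, with no overlap (exact p = 0.1). Ccnd2 over Myc was 0.91 ± 0.0790 and 0.89 ± 0.0107 (exact p = 0.8), and Max over Myc -1.40 ± 0.0669 and -1.31 ± 0.0268 (exact p = 0.2). Mxd4 over Myc was -2.23 ± 0.0345 and -2.26 ± 0.201 (exact p = 1.0), with replicate 3 of low glutamine the lowest at -2.49. Ccnd2 over Ccnd1 was 2.45 ± 0.0815 and 2.56 ± 0.0428 (exact p = 0.2).

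**Figure D3:**
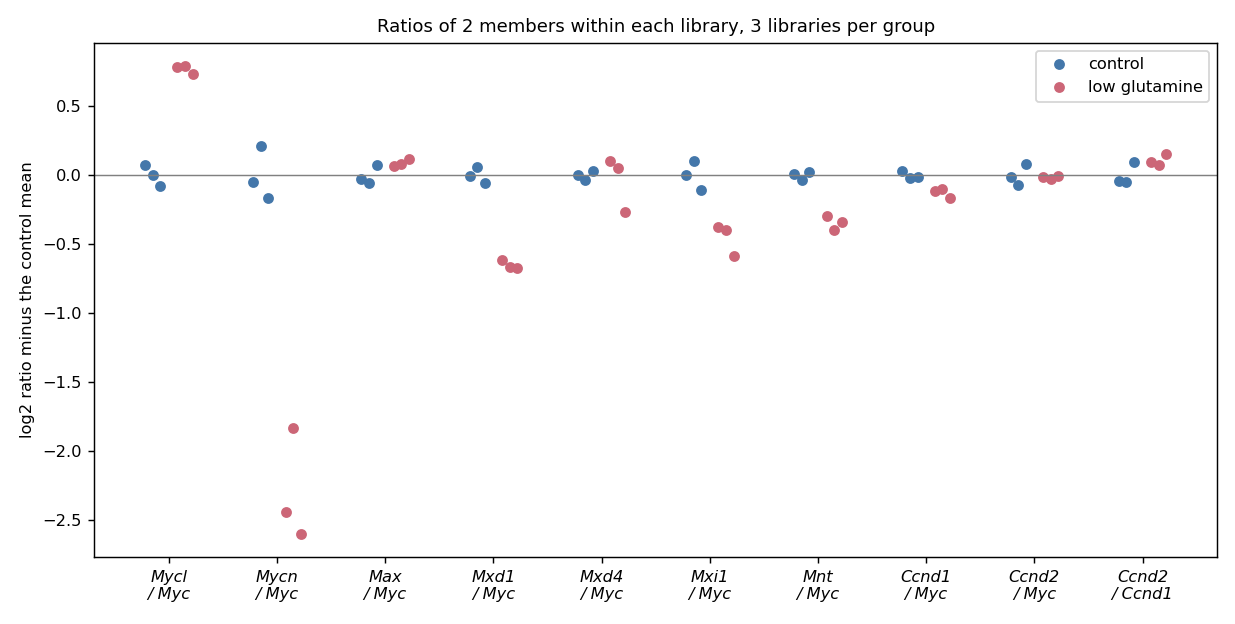
Log2 ratio of 2 members within each library, less the mean of the 3 controls (vertical axis), for control (blue) and low glutamine (red). Mycl over Myc lies about 0.77 above control and Mycn over Myc 2.29 below it, and the antagonists Mxd1, Mxi1 and Mnt lie below control in all 3 low glutamine libraries.

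The remaining genes of the Max network and its relatives, the Mlx branch that senses sugars, went both ways. Of 6, 3 rose and 2 fell, against 36.1% higher and 30.3% lower among all genes. Mga, a large Max partner, rose from 6.10 to 8.68 RPKM (log2 fold change 0.45), the glucose sensor partner Mlxip from 10.1 to 13.3 RPKM (0.37) and the antagonist Mxd3 from 2.78 to 3.84 RPKM (0.36). Mlx, which takes the place of Max in this branch, fell from 27.5 ± 0.106 to 14.4 ± 0.942 RPKM (-0.89 ± 0.06 SE, limma adjusted p = 3.0e-08). Mlxipl, the carbohydrate-responsive factor ChREBP, fell from 68.4 ± 4.22 to 39.3 ± 1.19 RPKM (-0.78). Zbtb17, which encodes the Myc partner Miz1, did not pass (5.74 and 6.19 RPKM). The Mxd3 call was lost with quantile normalization (0.22, limma adjusted p = 0.087).

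Cofactors of Myc and of its antagonists were mostly higher. Of 14 genes, 11 rose and 0 fell, against 36.1% higher and 30.3% lower among all genes, with a median log2 fold change of 0.20 (0.17 to 0.35 over the 6 scalings) against 0.03 for all genes. The largest rises were those of Trrap, a scaffold of histone acetyltransferases (6.68 to 10.2 RPKM, 0.55), the chromatin remodeller subunit Bptf (7.85 to 11.2 RPKM, 0.46) and the ATPase Ruvbl1 (13.4 to 18.2 RPKM, 0.41). Wdr5, Sin3b and Ncor1 did not pass as deposited, with means of 20.2 and 22.5 RPKM for Wdr5, 10.3 and 11.04 RPKM for Sin3b and 25.8 and 24.8 RPKM for Ncor1. Ncor1 passed as lower with median-of-ratios scaling (-0.09, limma adjusted p = 0.033). The count that rose was 14 with a common sum without Rn45s, where 54.3% of all genes were higher. It was 8 without control replicate 1 or 2, where 3808 and 3666 of 11082 genes were higher.

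Genes that control the stability of the Myc protein were mixed. Of 9, 4 rose and Gsk3a fell, against 36.1% higher and 30.3% lower among all genes. Under the common-sum scalings with and without Rn45s, 7 and 8 were higher, where 51.2% and 54.3% of all genes were. The median log2 fold change was 0.12 (0.09 to 0.25 over the 6 scalings), and 0.19 without low glutamine replicate 2. The ubiquitin ligase Huwe1 rose from 18.8 to 28.2 RPKM (log2 fold change 0.56). It is X-linked, so the difference in sex-linked transcripts stands beside it. The deubiquitinase Usp36 and the ligase subunit Skp2 rose by 0.35 and 0.24. The kinase Gsk3a, whose mark on Myc leads to its degradation, fell from 44.8 to 37.2 RPKM (-0.26). Fbxw7, which reads that mark, stood at 3.71 and 4.14 RPKM, Usp28 at 5.38 and 5.63, Gsk3b at 22.0 and 23.8 and Aurka at 17.7 and 17.2, and none of these passed as deposited.

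Among partners of the D cyclins and the machinery of G1 and S phase, 9 of 22 tested genes rose and 5 fell, against 36.1% higher and 30.3% lower among all genes. The median log2 fold change was 0.08, and 0.05 to 0.23 over the 6 scalings, and without control replicate 3 it was 0.04. Cdk6, the kinase that D cyclins activate, rose from 15.2 ± 0.712 to 32.5 ± 1.05 RPKM (1.05 ± 0.05 SE, limma adjusted p = 4.8e-09), and Cdk4 from 159 to 189 RPKM (0.25). The inhibitor Cdkn1c rose from 3.24 to 6.14 RPKM (0.76) and the activating E2f1 from 6.01 to 8.11 RPKM (0.38). Rb1, which encodes the retinoblastoma protein that Ccnd-Cdk complexes phosphorylate, fell from 18.3 ± 0.423 to 6.65 ± 0.163 RPKM (-1.33 ± 0.05 SE, limma adjusted p = 2.2e-10). Its relatives went another way, Rbl1 up by 0.24 and Rbl2 at 6.42 and 7.13 RPKM without passing.

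The other genes of that list that fell were inhibitors, an E2F and Ccnd3, the remaining D cyclin. The Cdk4 and Cdk6 inhibitor Cdkn2b fell from 9.60 to 3.66 RPKM (-1.18), E2f2 from 8.92 to 3.65 RPKM (-1.09) and the Cdk inhibitor Cdkn1a, also called p21, from 83.0 to 47.6 RPKM (-0.79). Ccnd3 fell from 15.7 ± 1.12 to 12.9 ± 0.555 RPKM (-0.26 ± 0.06 SE, limma adjusted p = 0.0022). The Ccnd3 call was lost with a common sum (-0.14, limma adjusted p = 0.053) and with the same without Rn45s (-0.12, adjusted p = 0.11), the scalings under which Ccnd1 and Ccnd2 passed as higher.

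Genes that Myc is known to activate were higher more often than lower. Of 40, 28 rose and 2 fell, against 36.1% and 30.3% of all genes, with a median log2 fold change of 0.21 (0.18 to 0.36 over the 6 scalings). The nucleolar proteins Mybbp1a and Ncl rose from 40.6 to 60.1 RPKM (0.55) and from 81.4 to 116 RPKM (0.50), and Cad, the enzyme that starts pyrimidine synthesis, from 8.05 to 12.2 RPKM (0.55). Those that fell were lactate dehydrogenase Ldha (968 to 519 RPKM, -0.90) and the mitochondrial scaffold Phb2 (152 to 135 RPKM, -0.17). Phb2 lost its call under both common-sum scalings and passed as higher with quantile normalization (0.11, limma adjusted p = 0.044). The count that fell was 1 without control replicate 1 or 2 or low glutamine replicate 1 or 2, and 4 without replicate 3 of either group. The nucleolar Npm1 did not pass as deposited, at 438 and 437 RPKM, and passed as higher with quantile normalization (0.25).

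Of 8 genes that Myc is known to repress, 5 fell and 1 rose, against 30.3% lower and 36.1% higher among all genes, with a median log2 fold change of -0.68 (-0.72 to -0.53 over the 6 scalings). Ndrg1, Cebpa and Cdkn2b fell by 1.52, 1.36 and 1.18 on the log2 scale, followed by Cdkn1a and by Ndrg2, which changed by -0.57. Cdkn2c rose from a mean of 8.68 RPKM (0.18), a call lost without low glutamine replicate 1 (0.16, limma adjusted p = 0.053). Cdkn1b (means of 22.1 and 22.8 RPKM) and Gadd45a (21.4 and 20.9 RPKM) did not pass. The enterocyte marker sum, 2458 to 2664 RPKM in control and 275 to 312 RPKM in low glutamine, moved the same way as this list, and its part in the result was not tested. Cdkn1a and Cdkn2b belong to both this list and the G1 and S phase list.

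Beside these, Wnt targets other than Myc and the D cyclins moved further. All 14 tested rose, where 36.1% of all genes did, with a median log2 fold change of 1.28 (1.24 to 1.41 over the 6 scalings). Tnfrsf19, Nkd1 and Cd44 led at 4.39, 3.34 and 2.47. Nkd1 and Lef1 had control means of 0.457 and 0.125 RPKM. They passed the filter only through low glutamine (13.7 and 2.07 RPKM), so their place among the risers was set by the filter. Notum, at 0.412 and 0.666 RPKM, was not tested. The smallest rise among the 14, 0.55 for Ephb2, exceeded the log2 fold change of Myc, Ccnd1 and Ccnd2 under each of the 6 scalings. Whether the members differ from these targets was not tested.

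**Figure D4:**
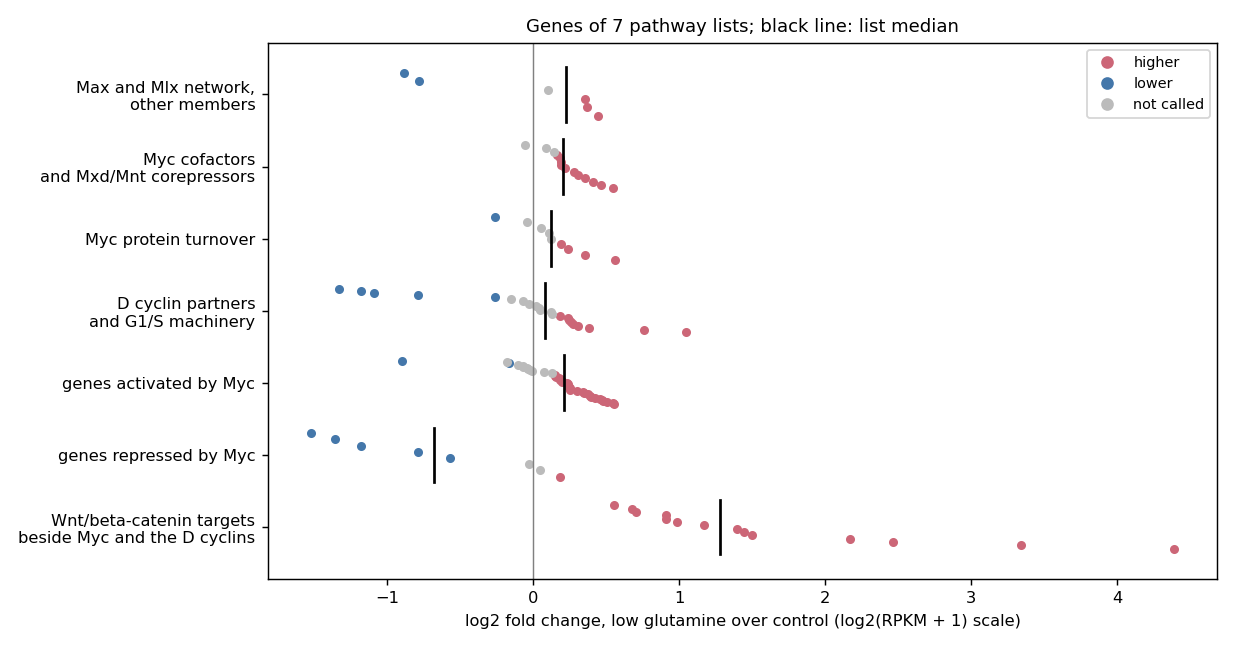
Log2 fold change (horizontal axis) of each tested gene in 7 lists around the Myc network, coloured by call (red higher, blue lower, grey not passing), with the list median as a black line. The medians lie between 0.08 and 0.23 for 5 lists, at -0.68 for genes repressed by Myc and at 1.28 for Wnt targets.

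By profile over the 6 libraries (Pearson r of log2(RPKM + 1), a description over libraries that share the group difference), the genes most like Myc were Nudt16l1, Golga7 and Zfp574 at 0.996, 0.995 and 0.995. Those most like Ccnd2 were Gatad2b, Nono and Elp3 at 0.999, 0.999 and 0.998. Those most like Ccnd1 were Fkbp11, Tmem109 and Atg2a at 0.989, 0.983 and 0.980. No gene of the 7 lists was among these 9. The lists hold few of the 11082 tested genes, so this was likely in advance and tells nothing about them.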

How the data were processed

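RNA was sequenced from 3 control and 3 low glutamine organoid libraries, grouped by sample title. The deposited values are RPKM per gene symbol, made by the authors. Partek, HISAT2 2.0.4, CASAVA 1.8 and mm10 are listed, per the submitters' processing notes, with no role for each. How reads were counted, on which annotation and with or without strand, is not given in the sources used here. It is thus not known whether values of Mxd1, Mxi1, Ccnd1 and Ccnd2 include reads of overlapping annotated genes (Gm38850, Gm30541, Lto1 and 9330179D12Rik).

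RPKM are not counts, so no count test was run. Genes averaging 1 RPKM or more were tested with limma 3.58.1 (R 4.3.3) on log2(RPKM + 1) with a variance trend, two-sided, Benjamini-Hochberg adjusted. The fit was checked on simulated libraries with few changed genes and no scaling difference. That check does not cover calls that depend on the scaling. Fold changes are low glutamine over control. Exact permutation tests of within-library ratios, tables and plots used numpy 2.4.6, pandas 2.3.3 and matplotlib 3.10.9 on Python 3.11.15. Depth was estimated from the value of 1 read in genes with a single exon. At that depth, whole reads within 0.02 at a common length between 300 and 8000 bases were recovered for 6 of the 10 members and for 70.5% of 860 genes tried. Loci and promoters are RefSeq, GRCm38.p6 (mm10), matched by symbol.

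The members, the lists and the tests were chosen with earlier results of these data known. Named genes are all members, up to 3 genes with the largest rise and 3 with the largest fall in each list, and small remainders. A few further genes, such as Bmyc, Cdk4, Rbl1, Rbl2 and Npm1, were named after their values were seen. The same-numbered libraries correlated in their deviations from the group means at 0.15, 0.25 and 0.57. This passed the rule used (every pair above 0.1) but does not establish pairing. Control replicate 2 correlated more with low glutamine replicate 1 (0.36), and control replicate 1 more with low glutamine replicate 2 (0.20). Every same-numbered pair also differed in Xist and Eif2s3y. Alternatives covered 5 scalings, 3 pseudocounts, 2 filters, the variance trend, autosomal genes, the replicate block and each library left out.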

Additional observations from a re-analysis of the deposited data

How the results depend on the processing

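Mycl, Max and Mxd1 kept their direction and call under all 20 settings, and Mxi1 and Mnt under 18 of 20. The count of members that rose was 2, and 5, 6, 4 and 4 with a common sum, a common sum without Rn45s, upper-quartile scaling and quantile normalization. The count that fell was 3, and 1 under both common-sum scalings. Over all genes, 4001 were higher, and 6021 with a common sum without Rn45s. These settings differ only in the library scaling. Ccnd1, at a log2 fold change of 0.00, turned to -0.032 with median-of-ratios scaling and ran from -0.036 to 0.022 with 1 library left out. With 1 library left out, Mxd4 over Myc ran from -0.11 to 0.078 and Ccnd2 over Myc from -0.050 to 0.028. With the replicate number as a block, 2 members rose and 3 fell, and no member's call changed. Without a filter on low values, Ccnd2 passed (0.11, limma adjusted p = 0.031) and Mycn was tested and fell. RPKM steps of 1 read limit Mycn most, at 21 reads in its lowest library, and 3 libraries a group limit every exact test.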
